A study of Mus musculus with 6 samples.

Results

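The Rab, Arf, Arl and Sar1 genes encode small GTPases that direct membrane traffic, and their RNA levels were compared here between adrenal glands of mice lacking PACAP and of wild-type mice. Members were the genes whose current mouse symbol is Rab followed by a digit, Arf or Arl followed by a digit, or begins with Sar1, which also takes in a few partner proteins named after a Rab or an Arl, such as Rab3gap1 and Arl14ep. The arrays held 72 such genes of 11837 named genes, on 157 of 36028 cDNA clones. Of these clones, 128 gave a usable ratio on at least 4 of the 6 arrays and were tested, and they stood for 63 of the genes. The other 29 clones passed the quality filter on 0 to 3 arrays and were not tested, among them every clone of 9 genes (Rab3d, Rab3il1, Rab9b, Rab27b, Rab32, Rab33b, Rab34, Rab39b and Arl16).

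PACAP (pituitary adenylate cyclase-activating polypeptide, the product of Adcyap1) is a neuropeptide that splanchnic nerve endings release onto the chromaffin cells of the adrenal medulla. Total RNA of whole adrenal glands, cortex and medulla together, was taken from wild-type (PACAP +/+) and knockout (PACAP -/-) mice, both on a 129XC57BL6 F2 background, and hybridised in pairs to 6 spotted cDNA arrays. Age and sex are not given in the sources used here. On every array the wild-type RNA carried Cy5 (red) and the knockout RNA Cy3 (green). No array exchanged the dyes, so genotype and any preference of a clone for 1 dye cannot be told apart. The labels number the arrays as repeats without saying whether each held RNA of separate animals. What the p-values measure is the variation from array to array, part of which may be technical. In RNA of a whole gland, fewer cells of a type and less RNA per cell cannot be told apart.

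A Rab or Arf protein works as a switch: bound to GTP it sits on a membrane and recruits coats, tethers and motors, and after GTP hydrolysis it returns to the cytosol. Each membrane carries its own set, so that a Rab is used as an address label for the endoplasmic reticulum (ER), the Golgi, endosomes, lysosomes or secretory granules. Arf1 and its relatives recruit the COPI and adaptor coats at the Golgi, and Sar1 starts the COPII coat at the ER. In chromaffin cells, Rab3 and Rab27 proteins attend the dense-core granules that store catecholamines and peptides.

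For 5 members, at least 2 different clones were higher in the knockout past the threshold described below (Arf1, Rab1a, Rab6a, Rab10 and Rab21), and the promoters of these are shown because their calls do not rest on 1 spot. PACAP receptors raise cAMP, and the cAMP response element holds the letters TGACG, which were therefore searched on both strands (TGACG or CGTCA; the palindrome TGACGTCA contains both) in the 250 bases before each start listed by RefSeq for mouse GRCm38.p6. Capitals mark the matches, and each window is written 5' to 3' along the gene's own strand. The Arf1 window (chr11:59228163-59228412, minus strand, 1 of 2 listed starts) had 2 matches, beginning 84 and 72 bases before the start. The Rab1a window (chr11:20201162-20201411, plus strand) had 0. In Rab6a (chr7:100607336-100607585, plus strand) there was 1, at 69 bases. Rab10 (chr12:3309970-3310219, minus strand) had 1, at 152 bases. The Rab21 window (chr10:115315592-115315841, minus strand) had 2, at 26 and 14 bases.
Arf1: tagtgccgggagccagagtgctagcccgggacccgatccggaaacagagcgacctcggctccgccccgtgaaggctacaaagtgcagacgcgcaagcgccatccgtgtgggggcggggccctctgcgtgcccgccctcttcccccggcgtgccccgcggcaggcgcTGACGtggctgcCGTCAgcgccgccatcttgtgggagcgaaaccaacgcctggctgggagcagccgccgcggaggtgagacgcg
Rab1a: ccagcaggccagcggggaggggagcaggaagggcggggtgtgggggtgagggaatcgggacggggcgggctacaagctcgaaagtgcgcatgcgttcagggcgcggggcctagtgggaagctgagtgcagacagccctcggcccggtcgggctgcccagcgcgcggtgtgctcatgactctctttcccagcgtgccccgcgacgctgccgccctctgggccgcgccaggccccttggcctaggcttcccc
Rab6a: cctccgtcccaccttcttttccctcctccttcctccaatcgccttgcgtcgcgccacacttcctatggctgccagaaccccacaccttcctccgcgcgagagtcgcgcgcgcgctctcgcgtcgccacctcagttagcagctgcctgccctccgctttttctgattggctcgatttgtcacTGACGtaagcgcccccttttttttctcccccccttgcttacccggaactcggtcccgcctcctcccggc
Rab10: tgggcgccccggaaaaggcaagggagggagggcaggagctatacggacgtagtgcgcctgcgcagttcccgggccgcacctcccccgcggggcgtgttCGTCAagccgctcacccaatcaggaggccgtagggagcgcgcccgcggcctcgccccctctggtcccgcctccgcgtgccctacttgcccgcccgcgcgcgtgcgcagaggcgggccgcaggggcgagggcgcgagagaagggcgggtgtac
Rab21: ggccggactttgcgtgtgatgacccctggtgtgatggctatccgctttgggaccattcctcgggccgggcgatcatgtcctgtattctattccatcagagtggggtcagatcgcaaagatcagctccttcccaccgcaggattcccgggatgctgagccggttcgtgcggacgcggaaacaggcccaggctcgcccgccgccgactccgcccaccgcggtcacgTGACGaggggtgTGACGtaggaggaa

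The letters were common among the members whether or not a clone passed. Of the 61 member genes with an entry, 29 (47.5%) held TGACG, against 2804 of 9367 named genes of the array (29.9%) and 17.8% of all windows of that length in the table. Among members with a clone higher in the knockout it was 6 of 11 (54.5%). Among members with no call, genes without a tested clone included, it was 23 of 49 (46.9%). The whole palindrome TGACGTCA was found in 2 members, Rab5a and Rab11fip3 (3.28%, against 2.95% of the array's genes), whose clones did not pass. Shares of genes count a gene with a match before any of its listed starts, and the Arf1 window printed is the one of its starts with more matches. A match describes letters in a window and is not a binding site.

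The red, wild-type signal and the spread of the ratios both differed between arrays. Across all 157 member clones, tested or not, the median knockout signal was 6.65 to 7.95 times the local background on the 6 arrays. The median wild-type signal was 5.93 times the background on array 1, but 1.40 times on array 2 and 1.15 times on array 4. On arrays 3, 5 and 6 it was 2.24, 2.63 and 1.67 times. Of 37632 spots per array, 26027 to 31960 passed the authors' quality score of 0.3. The members' log2 ratios had standard deviations of 0.24 on arrays 1 and 5, 0.33 on array 3 and 0.40 on array 6. The largest were 0.57 on array 2 and 0.63 on array 4. A link between signal and spread was not tested.

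More members stood above than below 0. Ratios are given as log2 of knockout over wild type after print-tip loess, which centres each print block (the area laid down by 1 pin) on its own intensity trend, and each mean is followed by limma's standard error (SE) over n arrays. Of the 128 tested clones, 80 (62.5%) had a mean above 0, against 49.7% of all 28618 clones tested. The median was 0.10 (quartiles -0.09 and 0.29), against 0.00 over all clones. In limma with Benjamini-Hochberg adjustment over all clones and a threshold of 0.05, 18 member clones (14.1%) were higher and 5 (3.91%) lower in the knockout. The background share was 6.83% of all clones for higher, 4.66% for lower and 11.5% for either direction, against 23 member clones (18.0%). At an unadjusted p under 0.05, 37 members (28.9%) were higher and 13 (10.2%) lower, against 17.7% and 15.2% of all clones. The adjusted calls came from 17 genes, 13 with a higher clone, 5 with a lower one, and Arf3 with both. Counting 1 clone for each gene, 9 of 63 genes were higher and 4 lower.

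The excess above 0 was carried mainly by the arrays with weak red signal. The members' median was 0.22 on array 2 and 0.23 on array 4, 0.09 on array 6, and -0.01, 0.02 and 0.02 on arrays 1, 3 and 5. Array 1 had the strongest wild-type signal, and 63 of 128 members (49.2%) lay above 0 there. Without arrays 2 and 4, which were left out together after their values were seen, the members' median was 0.04 and 2 clones passed, the Arf3 clone of print block 36 (0.59, limma adjusted p = 0.042) and the Rab3gap2 clone (0.64, adjusted p = 0.0427). Leaving out 1 array ended every member call in limma when it was array 2, 3, 4 or 6, with 39, 42, 34 and 47 members then at an unadjusted p under 0.05. The same fits called 1, 1, 28 and 1 clones in the whole table. Without array 1, 22 members were higher and 4 lower, and without array 5 the counts were 18 and 4. Each of the 23 called clones kept its sign in all 6 of these fits. For 16 of the 18 higher and all 5 lower clones this was fixed, because every array measured lay on 1 side of 0.

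**Figure D1:**
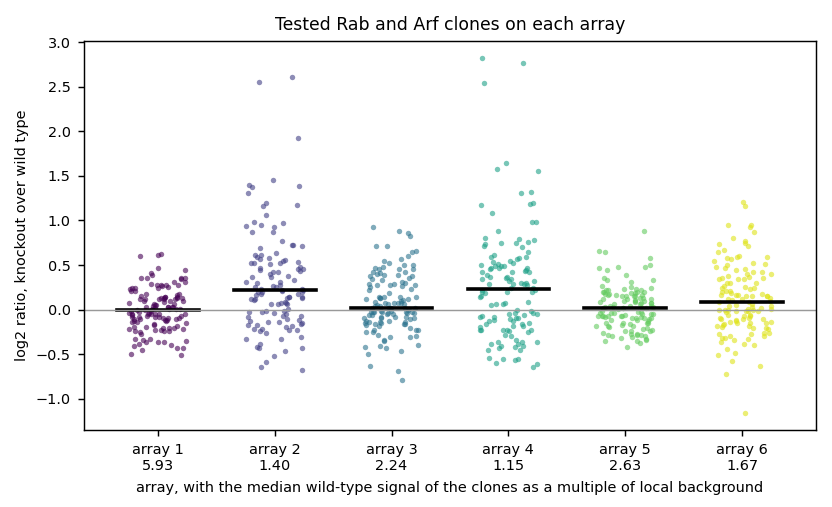
Log2 ratio of knockout over wild type of every tested Rab and Arf clone (points) on each of the 6 arrays, with medians as bars. The number under each array is the median wild-type signal over local background of all 157 member clones, tested or not. The bar lies at 0.22 and 0.23 on arrays 2 and 4, where the wild-type signal was weakest, and between -0.01 and 0.09 on the other 4.

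Among the secretory Rabs, which act at regulated granules, Rab3c was higher and Rab37 lower. Of 6 tested clones in 5 genes, 1 passed in each direction, and the median was 0.29. Rab3c, one of the Rab3 proteins of granules and synaptic vesicles, had array values from 0.35 to 0.95 with a median of 0.48. All 6 arrays were above 0, with arrays 2 and 6 near 0.95 and the other 4 between 0.35 and 0.50. Its mean was 0.61 ± 0.10 (SE, n = 6), a ratio of 1.53 (limma adjusted p = 0.0243). Rab37, a Rab of secretory granules in mast cells and other secretory cells, ran from -0.72 to -0.15 with a median of -0.29. It was below 0 on 6 of 6 arrays, lowest on arrays 2 and 6, and averaged -0.38 ± 0.10 (SE, n = 6; limma adjusted p = 0.041).

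The remaining secretory Rabs did not pass. Rab26, a Rab of granule maturation, ran from -0.19 to 1.64 with a median of 0.30. Its mean of 0.55 ± 0.22 (SE, n = 6; limma adjusted p = 0.121) came from arrays 2 and 4, at 1.30 and 1.64, while the other 4 lay between -0.19 and 0.33. The Rab3b clones stood at 0.36 ± 0.11 (print block 12, adjusted p = 0.0652) and 0.23 ± 0.10 (print block 38, adjusted p = 0.137), each with 6 arrays. Rab27a, which with its effectors docks granules at the plasma membrane, was at -0.08 ± 0.09 (SE, n = 6; adjusted p = 0.514) and had 2 arrays above 0. Under global loess Rab27a stood at -0.44 and passed as lower (adjusted p = 0.0303), and Rab26 (0.68, adjusted p = 0.0464) and the Rab3b clone of block 12 (0.48, adjusted p = 0.0158) passed as higher. All 3 clones of Rab27b passed the quality filter on 0 arrays and the 1 clone of Rab3d on 2, too few to be tested.

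The Rabs of the ER and Golgi held 5 higher clones and 1 lower clone of 24 tested, with a median of 0.13 and 16 means above 0. Under global loess 4 were higher and 3 lower, with a median of 0.03. Rab1a, needed for transport from the ER to the Golgi, was higher on both of its tested clones. The clone of print block 9 ran from 0.03 to 1.38 with a median of 0.51, above 0 on 6 of 6 arrays and highest on arrays 2 and 4. Its mean was 0.63 ± 0.17 (SE, n = 6; limma adjusted p = 0.0453), but it was 0.19 under global loess (adjusted p = 0.425), -0.13 where arrays were only centred on their medians, and -0.76 in the authors' value table, centred per array. The second Rab1a clone, of block 25, ran from 0.01 to 0.65 with a median of 0.58, near 0 on arrays 1 and 3 and at 0.58 to 0.65 on the other 4. Its mean was 0.41 ± 0.11 (adjusted p = 0.0444), and global loess gave nearly the same mean with an adjusted p of 0.0627.

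Rab2a, which acts in tethering at the Golgi, had 1 higher clone of 3. The clone of print block 29 ran from -0.02 to 1.45 with a median of 0.73, above 0 on 5 of 6 arrays. The lowest value was that of array 1. Its mean was 0.79 ± 0.17 (SE, n = 6), a ratio of 1.73 (limma adjusted p = 0.0301), against 0.20 ± 0.14 (n = 5) and 0.09 ± 0.11 (n = 6) for the other Rab2a clones, which did not pass. Rab6a, a Golgi Rab of retrograde traffic and of carriers leaving the trans-Golgi, was measured on 6 clones, more than any other member. All 6 means lay above 0, between 0.03 and 0.56, and 2 passed. The lowest, of block 8, is titled as another gene in the scanner files and stood at -0.02 under global loess. The Rab6a clone of block 11 ran from 0.06 to 1.06 with a median of 0.63 and a mean of 0.56 ± 0.13 (n = 6; adjusted p = 0.0323). That of block 29 ran from 0.09 to 0.87 with a median of 0.38 and a mean of 0.44 ± 0.12 (n = 6; adjusted p = 0.0415). Both were above 0 on 6 of 6 arrays. The paralogue Rab6b, with neuronal expression in mice, had 3 tested clones at -0.27, 0.01 and 0.23, and none passed (adjusted p between 0.0676 and 0.963).

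Rab30, a Golgi Rab, had the lowest mean of all members. Its 1 clone ran from -0.60 to -0.26 with a median of -0.42, below 0 on 6 of 6 arrays and without an array that stood apart. The mean was -0.42 ± 0.08 (SE, n = 6; limma adjusted p = 0.0243), and global loess gave -0.83 (adjusted p = 0.00128). Rab18, a Rab of the ER and lipid droplets, had 4 clones between -0.15 and 0.38, of which none passed (adjusted p between 0.168 and 0.777).

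Exocytic and recycling Rabs were the largest group, with 28 tested clones in 12 genes. Of these, 3 were higher and 0 lower in limma (1 lower at an unadjusted p under 0.05), against 7 higher and 2 lower under global loess, and the median was 0.06. Rab10, which carries vesicles to the plasma membrane, gave 2 of the 3 higher clones. Its clone of print block 33 ran from 0.05 to 1.57 with a median of 0.71 and a mean of 0.79 ± 0.17 (SE, n = 6; limma adjusted p = 0.0299). The block 31 clone ran from 0.10 to 1.55 with a median of 0.50 and a mean of 0.68 ± 0.16 (n = 6; adjusted p = 0.0341). Both clones were lowest on array 1 and highest on array 4, and above 0 on 6 of 6 arrays. The third tested Rab10 clone, at 0.28 ± 0.12, did not pass, and under global loess its mean was -0.27.

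Rab11a, of the recycling endosome, passed on 1 clone of 3. The clone of print block 38 ran from 0.21 to 0.87 with a median of 0.38 and a mean of 0.48 ± 0.11 (SE, n = 6; limma adjusted p = 0.0312). Its other clones stood at -0.01 ± 0.08 and -0.22 ± 0.08, and the latter, of block 5, passed as lower under global loess (-0.73, adjusted p = 0.0039). The paralogue Rab11b lay between -0.02 and 0.12 on 3 clones, none of which passed. Under global loess its clone of block 40 stood at 0.76 and passed as higher (adjusted p = 0.00145). Rab14, of Golgi and endosomes, had 3 clones from -0.13 to 0.53. The highest, at 0.53 ± 0.17 (adjusted p = 0.0612), reached 1.17 and 1.08 on arrays 2 and 4 and -0.07 on array 6. Rab12 had 4 clones between -0.14 and 0.02, and Rab15, a Rab of neuronal endosomes, 3 between -0.19 and 0.32. No Rab12 or Rab15 clone passed, although the Rab12 clone of block 48 did as higher under global loess (0.75, adjusted p = 0.00376).

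Early endosome Rabs gave 2 higher clones and 0 lower of 14 in limma (0 lower at an unadjusted p under 0.05 too), against 3 higher and 3 lower under global loess, with a median of 0.13. Both higher clones of limma under print-tip loess came from Rab21, which governs integrin traffic and early endosomes, and 1 of them had the largest mean of all members under print-tip loess (Rab23 did under global loess, at 2.00). The Rab21 clone of print block 13 ran from 0.14 to 2.76 with a median of 1.02. Arrays 2 and 4 stood at 2.61 and 2.76, and the other 4 at 0.14 to 1.16. The mean was 1.32 ± 0.33 (SE, n = 6), a ratio of 2.50 (limma adjusted p = 0.0366), and in the centred value table the mean was -0.05. The clone of block 9 ran evenly from 0.24 to 0.71 with a median of 0.54, and its mean was 0.50 ± 0.09 (n = 6; adjusted p = 0.0243). Its sign depended on the normalization: global loess gave 0.14 (adjusted p = 0.422), median centring -0.00028 and the centred value table -0.48. The third Rab21 clone was at 0.13 ± 0.08 and did not pass. Rab5c, a Rab of early endosome fusion, stood at 0.32 ± 0.09 (adjusted p = 0.0515) and 0.26 ± 0.08 (adjusted p = 0.0699) and lay just outside the threshold. Rab22a had 3 clones between -0.10 and 0.09, none of which passed, while global loess called 1 higher (0.59) and 2 lower (-0.36 and -0.41).

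Late endosome, lysosome and lysosome-related organelle Rabs had a median of -0.04 over 9 clones, with 1 lower and 0 higher (2 higher at an unadjusted p under 0.05, and 0 under global loess). The lower clone was Rab38, a Rab of melanosomes and other lysosome-related organelles. It was measured on 5 arrays, from -0.59 to -0.08 with a median of -0.49, and array 1 was the one nearest 0. Its mean was -0.41 ± 0.10 (SE, n = 5; limma adjusted p = 0.0387). Rab7, the main Rab of late endosomes, had 3 clones at 0.32, 0.27 and 0.20, all above 0. The first of these (print block 21) was the member closest outside the threshold, at an adjusted p of 0.0505, and the Rab11fip4 clone named below was the closest inside it, at 0.0498. Rab23, a Rab known from Sonic hedgehog signalling and cilia, was listed here outside these groups and had 1 higher clone of 2. The clone of block 36 ran from -0.06 to 2.55 with a median of 0.74. Arrays 2 and 4 were at 2.55 and 2.54, array 6 was below 0, and the other 3 were at 0.61 to 0.83. Its mean was 1.18 ± 0.32 (n = 6; adjusted p = 0.0441), against 0.06 ± 0.08 for the second clone.

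Proteins named after a Rab gave 2 higher clones and 1 lower of 14, with a median of -0.01. The subunits of the Rab3 GTPase-activating complex, which switches Rab3 off, stood on opposite sides of 0. Rab3gap2, the noncatalytic subunit, ran from 0.41 to 2.82 with a median of 0.79, highest on arrays 2 and 4. Its mean was 1.22 ± 0.28 (SE, n = 6), a ratio of 2.33 (limma adjusted p = 0.0329), with 6 of 6 arrays above 0. Rab3gap1, the catalytic subunit, ran from -0.50 to -0.18 with a median of -0.38, below 0 on 6 of 6 arrays. Its mean was -0.36 ± 0.08 (n = 6; adjusted p = 0.0285). Under global loess Rab3gap2 was at 1.45 and Rab3gap1 at 0.01 (adjusted p = 0.934). The difference between the subunits was not tested. Rab11fip4, a Rab11 effector, ran from 0.07 to 0.53 on its clone of print block 12, with a median of 0.28 and a mean of 0.29 ± 0.08 (adjusted p = 0.0498). In the centred value table it was at -0.20, and the other 3 tested Rab11fip4 clones lay between -0.22 and 0.22 without passing. A Rab5if clone of block 33, titled as another gene in the scanner files, stood at -0.32 ± 0.11 (SE, n = 4; adjusted p = 0.0848) with 4 of 4 arrays below 0. The other Rab5if clone, of the same block, was at 0.16 ± 0.09 (n = 6; limma adjusted p = 0.262) and did not pass.

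The Arfs gave 4 higher clones and 1 lower of 12, with a median of 0.09. Arf1, which recruits COPI at the Golgi, was higher on both of its clones. The clone of print block 43 ran from 0.02 to 0.98 with a median of 0.50, lowest on array 1, and its mean was 0.54 ± 0.13 (SE, n = 6; limma adjusted p = 0.0329). That of block 19 ran from 0.10 to 0.72 with a median of 0.39 and a mean of 0.37 ± 0.09 (n = 6; adjusted p = 0.0364), but stood at -0.13 in the centred value table. Arf4, an Arf of the Golgi and of carriers between ER and Golgi, passed on 1 clone of 3, which ran from 0.01 to 0.63 with a median of 0.44 and a mean of 0.38 ± 0.10 (n = 6; adjusted p = 0.0378). Under global loess this clone was at 0.26 and did not pass (adjusted p = 0.113). Its median wild-type signal was 0.988 times the local background, the only called member below its background. Arf2 and Arf5, with 1 clone each, were at 0.08 and -0.08, and neither passed.

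Arf3, a Golgi and endosome Arf closely related to Arf1, was called in both directions. The clone of print block 36 ran from 0.50 to 1.17 with a median of 0.65. Its mean was 0.71 ± 0.10 (SE, n = 6), a ratio of 1.63, and its adjusted p of 0.0224 in limma was the smallest of all members. The scanner files title this clone as another gene, a protein differentially expressed in tumours, so that its identity as Arf3 rests on the probe annotation alone. The clone of block 32 ran from -0.39 to -0.17 with a median of -0.25. It averaged -0.27 ± 0.07 (n = 6; adjusted p = 0.0441) and stood at 0.45 under global loess (adjusted p = 0.0672). The other 3 Arf3 clones lay between -0.16 and 0.10 and did not pass. No direction for Arf3 follows from these clones.

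**Figure D2:**
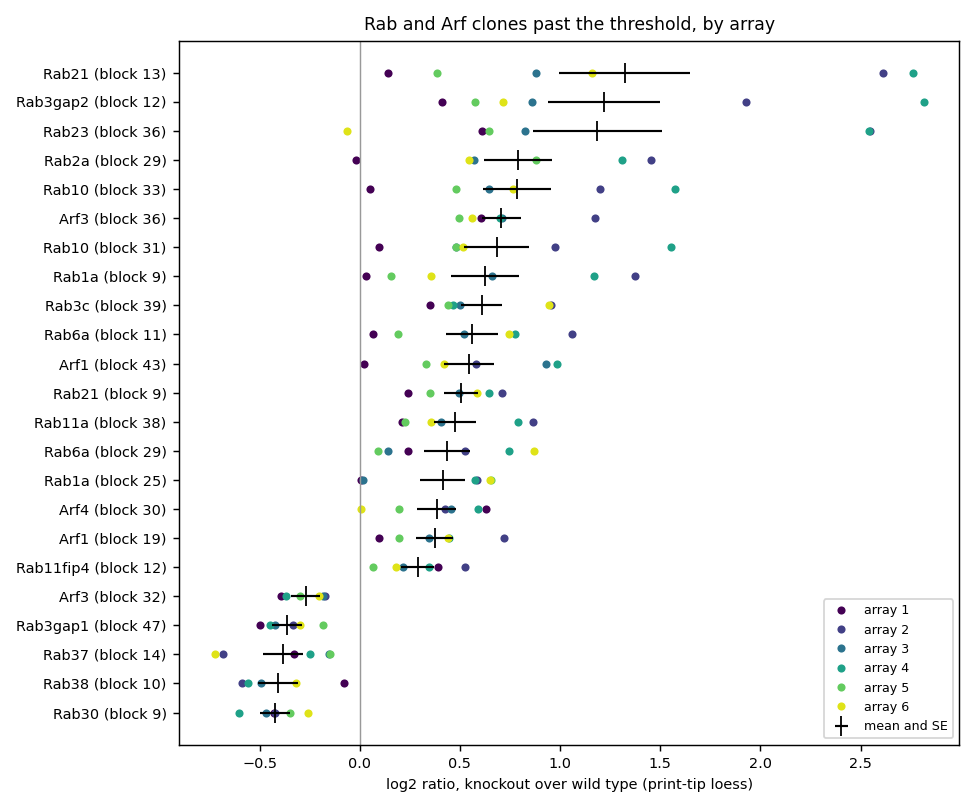
Log2 ratio of knockout over wild type on each array (coloured points) of the 23 Rab and Arf clones past the threshold, with the mean and SE in black. Arrays 2 and 4 hold the highest values of most of the higher clones, up to 2.82 for Rab3gap2, while the 5 lower clones lie between -0.72 and -0.08 on every array measured.

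The Sar1 and Arl genes gave 0 calls in limma under print-tip loess, with 1 of 5 Sar1 clones and 4 of 10 Arl clones higher at an unadjusted p under 0.05. Global loess called 1 Sar1 and 2 Arl clones. Sar1a, which assembles the COPII coat, had 4 clones with means of 0.05, 0.15, 0.20 and 0.33, all above 0, with adjusted p between 0.117 and 0.8. The clone at 0.05 stood at 0.58 under global loess and passed there (adjusted p = 0.0139). The Sar1a clones at 0.20 and 0.15 turned to -0.31 and -0.23 under global loess, and that at 0.33 stood at 0.17, without passing. Sar1b had 1 tested clone at -0.09 ± 0.12 (SE, n = 4). Arl1, an Arf-like protein that recruits golgins to the trans-Golgi, split into 2 clones at 0.34 and 0.53 and 2 at -0.04 and -0.06. The former pair passed as higher under global loess, at 0.72 and 0.69. Arl2, which acts in tubulin folding, had 3 clones from -0.19 to 0.30. Over the 10 Arl clones the median was 0.06.

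**Figure D3:**
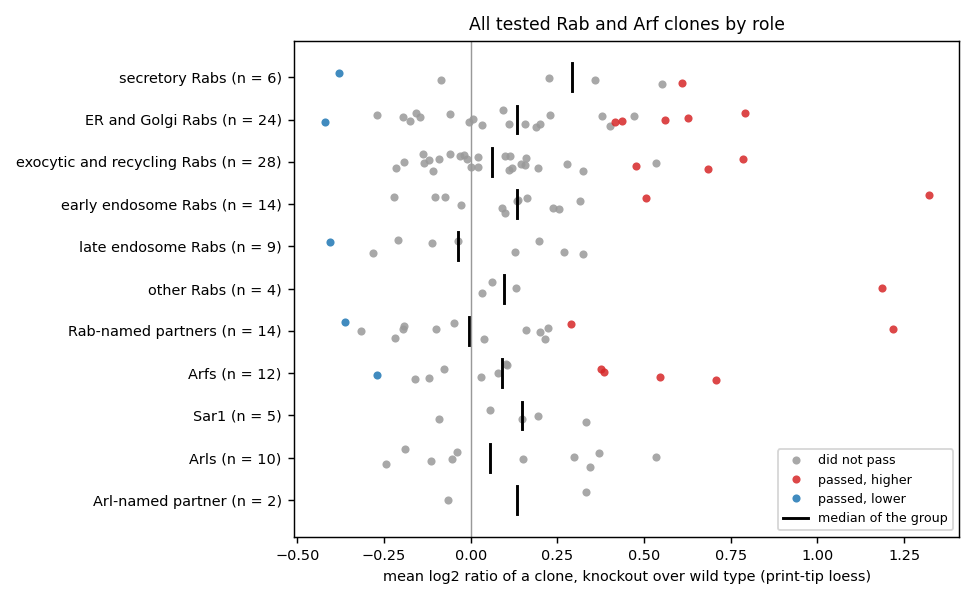
Mean log2 ratio of every tested clone by the compartment or role of its gene, with the median of each group as a bar and clones past the threshold in colour. Under print-tip loess the ER and Golgi group holds 5 higher clones of 24 and the Arfs 4 of 12. The medians run from -0.04 for late endosome Rabs to 0.29 for the 6 secretory clones.

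Different clones of the same gene often differed in sign. Of 36 genes with at least 2 tested clones, 14 had all means above 0, 4 all below 0, and 18 had both signs. Some of these means lay within their SE of 0, such as those of Rab35 (-0.06 ± 0.13 and 0.00 ± 0.11). A sign difference is then no disagreement, and the same count over all genes is not given. Of 11 genes with a call and at least 2 tested clones, 5 had 2 clones past the threshold in the same direction, all of them higher. Rab11b lay within -0.02 to 0.12 and Rab7 within 0.20 to 0.32 on 3 clones each, whereas Rab21 spanned 0.13 to 1.32 and Arf3 spanned -0.27 to 0.71. Calls were also counted by the title that the scanner files give each clone. Among 57 clones whose title names a Rab, Arf or Sar1 protein, 13 were higher and 1 lower. Among 65 with a title that names no gene, 4 were higher and 4 lower, and among 6 titled as another gene 1 was higher. Calls by title over all clones are not given, so the split cannot be read as particular to the members. The median wild-type signal of member clones was 4.56 times the background for higher, 3.29 times for lower and 2.29 times for those not passing. Over all clones these medians were 3.49, 3.27 and 2.39 times. In the knockout channel the member medians were 19.6, 5.98 and 9.19 times, so the lower clones were dimmer there than those not passing. These are descriptions without a test.

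**Figure D4:**
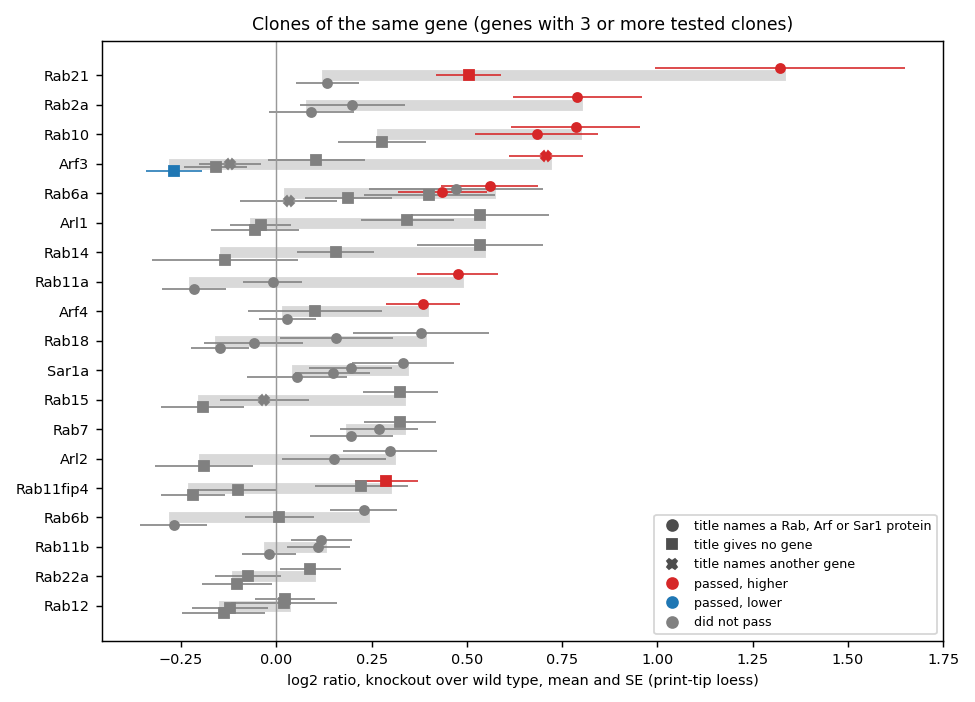
Mean log2 ratio and SE of each clone for the 19 genes with at least 3 tested clones, with symbols for the clone's title and colours for clones past the threshold. Under print-tip loess all 6 Rab6a clones lie above 0, the lowest of them titled as another gene. The 5 clones of Arf3 run from -0.27 to 0.71 with a call at either end.

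The ratios varied with position on the slide. Under global loess, 1 curve for the whole array, print blocks accounted for 47.1% of the variance of the clones' mean ratios, and under print-tip loess for 0.0743%. Global loess called 31 members higher and 15 lower (35.9%), against a background of 30.5% for either direction, 16.2% for higher and 14.3% for lower. Between both normalizations, 14 clones (10.9%) were called higher and 3 (2.34%) lower each time, against 4.84% and 2.25% of all clones, and 0 in opposite directions, but the sign of the mean differed for 31 of 128 clones. The 6 clones called under print-tip loess alone were both Rab1a clones, the Rab21 clone of block 9 and the Arf4 clone as higher, and the Rab3gap1 clone and the Arf3 clone of block 32 as lower. The members' median was 0.12 under global loess, against 0.02 over all clones.

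**Figure D5:**
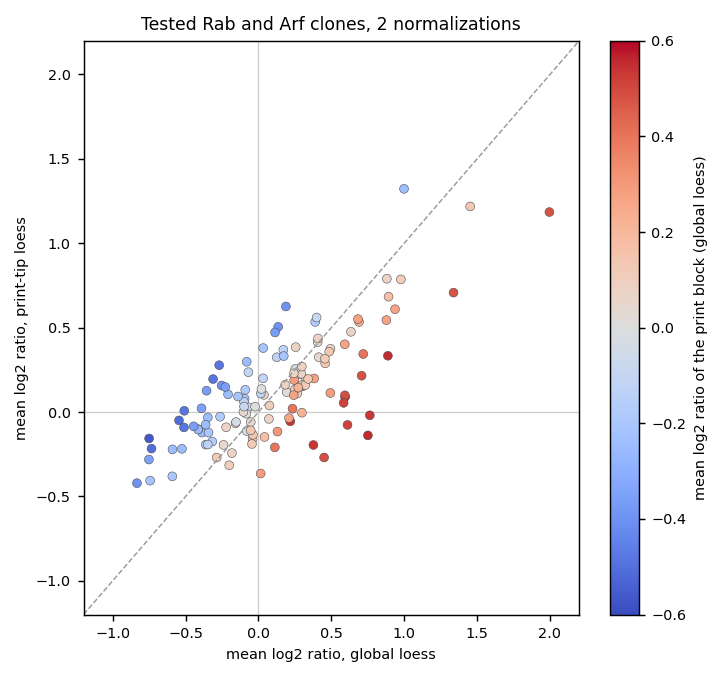
Mean log2 ratio of each tested Rab and Arf clone under global loess (x axis) and print-tip loess (y axis), coloured by the mean ratio of all clones of its print block under global loess; the dashed line marks equal values. Clones of high-ratio blocks lie to the right of the line and clones of low-ratio blocks to the left, and 31 of 128 clones change sign.

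Genes that load, activate, read out or follow the GTPases were counted from lists of 174 known partners, of which 131 had a tested clone. Of 239 clones, 16 (6.69%) were higher and 7 (2.93%) lower, 9.62% in all, with a median of 0.03. The shares of all clones were 6.83%, 4.66% and 11.5%, so partner calls were no more frequent than those of the whole table. The GDP-dissociation and prenylation proteins, which ferry Rabs between membrane and cytosol, had 3 higher and 0 lower of 10. Exchange factors and GTPase-activating proteins of Rabs had 1 and 3 of 62, and Rab effectors 2 and 2 of 41. Regulators and effectors of Arfs had 7 and 0 of 61, and coat subunits 3 and 2 of 65. Global loess gave 40 higher and 34 lower partner clones, where 16.2% of all clones were higher and 14.3% lower. The prenylation list had 2 and 1, Rab regulators 7 and 9, and effectors 6 and 8. The Arf list had 10 and 8, and coats 15 and 8.

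The largest higher partner clones were those of Sec16a, Rufy1 and Mon1a. Sec16a, a scaffold of ER exit sites, ran from 0.38 to 2.10 with a mean of 1.04 ± 0.24 (SE, n = 6; limma adjusted p = 0.0321). Rufy1, a Rab4 effector, was at 0.80 ± 0.23 (n = 6; adjusted p = 0.0496), and Mon1a, part of the exchange factor of Rab7, at 0.72 ± 0.13 (n = 6; adjusted p = 0.0251). Each of these genes had a second clone that did not pass, at 0.39 for Sec16a (adjusted p = 0.279), 0.03 for Rufy1 (adjusted p = 0.869) and 0.08 for Mon1a (adjusted p = 0.516). The largest lower ones were Tbc1d16 at -0.41 ± 0.09 (n = 5; adjusted p = 0.0331) and Tbc1d30 at -0.38 ± 0.10 (n = 6; adjusted p = 0.0394), both with a Rab GTPase-activating domain, and 1 of 4 clones of the COPI subunit Arcn1 at -0.37 ± 0.07 (n = 6; adjusted p = 0.0271). The other 3 Arcn1 clones were at 0.21, 0.30 and 0.40 and did not pass. The Tbc1d30 clone stood at 0.14 under global loess, and its second clone, near 0, did not pass.

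Several marker genes of the medulla and the cortex were higher in the knockout as well. Of 8 tested chromaffin clones, from 5 of 8 listed genes, 4 were higher and 1 lower, with a median of 0.52 and a range of -0.46 to 0.83. The higher ones were clones of Chga and Chgb, the granins of the chromaffin granule. The lower one was of Slc18a1, at -0.46 (limma adjusted p = 0.0312). Clones of Th and Ddc and another Chga clone, at 0.65, 0.29 and 0.39, did not pass. Of 9 tested clones for cortical steroid genes, 4 were higher and 0 lower, with a median of 0.67 and a range of 0.29 to 1.40. Every gene of both lists on the array had at least 1 clone with a wild-type signal above its local background (1.62 to 21.7 times for chromaffin genes, 1.74 to 51.5 times for cortical ones). The 12 tested clones for endothelium, macrophages, Schwann cells, adipocytes, skeletal muscle and erythroid cells gave 0 calls in limma, with 1 at an unadjusted p under 0.05 and means of -0.24 to 0.31 (1 was higher under global loess), and kidney markers were not on the array. The part of these marker differences in the members' ratios was not tested.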

How the data were processed

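Adrenal RNA of PACAP -/- and PACAP +/+ mice was compared on 6 cDNA arrays of 37632 spots in 48 print blocks of 784. The deposited intensity columns already had local background subtracted by the authors, per the file headers and the series design text. The deposited calibrated ratio sets red against green and divides by an array constant (0.220 to 0.783), and the authors' quality score of each spot lies between 0 and 1. The deposited value table holds log2 ratios of red over green from which background was subtracted a second time, as its values show, with columns that are not centred. Aligning this table to the spots by value (within 0.002) matched 35793 of 35873 rows (99.8%) and gave clones their genes through the platform annotation, which can be old. Symbols were updated by gene ID through RefSeq (GRCm38.p6) for 11616 of 11837 genes.

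Signals below 1 were set to 1, only spots whose quality score exceeded 0.3 were kept, 1382 control or unidentified spots were dropped, and ratios were normalized by print-tip loess (span 0.3). Spots of a clone were averaged. In R 4.3.3, limma 3.58.1 (lmFit, then eBayes) tested the mean of every clone with at least 4 arrays against 0. The 28618 p-values were adjusted by Benjamini-Hochberg, with calls at 0.05. Python 3.11.15 served for the summaries. Print-tip loess was preferred to global loess, which is given beside it. Simulated data of 28618 clones held an offset for each print block, drawn anew for each array, and an intensity trend. Block offsets favour print-tip loess by design, so the counts cannot compare it with global loess. Block offsets shared between arrays were not simulated. On these data, print-tip loess recovered 37 of 100 clones changed by 0.5 on the log2 scale. It recovered 100 of 100 changed by 1, with 2 false calls of 139. Global loess recovered 11 of 100 and 94 of 100 there, with 1 false call of 106. These counts hold for the simulated data only. The share of false calls on the real arrays was not tested. The number of arrays and the signal over background limit the precision.

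Members and lists were chosen with earlier results of these data known. Members named are every gene with a clone past the threshold, the 5 largest one-signed clones in each direction, every tested secretory Rab and every gene with at least 3 tested clones, and of the partners the 3 largest calls in each direction. Others are named as examples, after their values were seen. Alternatives covered the normalization, the background, the quality filter, dim spots, the arrays required, array weights, each array left out, the authors' value table and 1 clone per gene.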

Additional observations from a re-analysis of the deposited data

Results flagged for a closer look

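Of 28 named clones examined for an array far from the rest, 1 was set apart. The Arf3 clone of print block 36 stood at 1.17 on array 2, while its other 5 arrays lay between 0.50 and 0.71, and the gap took up 0.687 of the whole range, above Dixon's critical value of 0.625 for 6 values. Chance flags about 1 in 20 such groups. Without array 2 this clone no longer passed, as no member did, and without arrays 2 and 4 together it did.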

How the results depend on the processing

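The counts of calls depended on the processing. The 23 member, 3289 total and 23 partner calls became 46, 8724 and 74 under global loess, and 51, 9412 and 81 with median centring. They became 0, 0 and 0 without the quality filter (limma, with 49 of 157 members at an unadjusted p under 0.05) and 0, 90 and 0 in the centred value table (45 members at an unadjusted p under 0.05), where the members' median was 0.37 against 0.24 over all clones. Leaving out 1 array gave 0 to 26 member, 1 to 3773 total and 0 to 31 partner calls, and 0 to 20 calls among the 28 named clones. Under global loess these ranges were 29 to 50, 4473 to 8631, 36 to 75 and 13 to 21. Without arrays 2 and 4 the counts were 2, 88 and 0, with 2 named clones, and under global loess 15, 2069 and 18, with 7. With 1 clone per gene, 13 of 63 genes passed. Among the named clones 0 passed without the quality filter and in the value table. Background added back, dim spots left out, all 6 arrays required and array weights left every count within 1.5 times. Of 602 values of the named clones under alternatives, 336 kept direction and side of the threshold, 228 lost the call, 17 gained one and 21 changed sign. Signs turned for Arf1 of block 19 (-0.13 in the value table), Rab11fip4 of block 12 (-0.20) and Rab21 of block 13 (-0.0545). They also turned for Rab21 of block 9 (-0.48 in the value table, -0.00028 with median centring) and for Rab1a of block 9 (-0.76, -0.13, and -0.11 under global loess without arrays 2 and 4). The Arf3 clone of block 32 was at 0.45 under global loess (0.23 to 0.53 leaving out 1 array, 0.50 without arrays 2 and 4), and Rab3gap1 at 0.0149 (-0.02 to 0.0504 leaving out 1 array, above 0 without array 1, 2, 3 or 5 and lowest above 0 at 0.00617). Leaving out 1 array under print-tip loess gave -0.29 to -0.25 and -0.40 to -0.34. The cause was not tested. No paired analysis was possible because all arrays form 1 group, each ratio already pairing both RNAs of its array.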
